A study of Homo sapiens with 18 samples.

Results

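The 24 h response of HaCaT cells to a scratch wound is described here gene by gene. HaCaT is an immortal line of human skin keratinocytes, and all its libraries come from that 1 line. The response was taken as the difference between 3 libraries collected 24 h after a scratch and 3 libraries of unscratched cultures, called 0 h. These 6 libraries are 6 of the 18 in the study, and the members are the 17409 genes with enough reads to test, of 58735 annotated. The study also collected HaCaT at 6 h, and TIGK, an immortal line of gingival keratinocytes, at 0, 6 and 24 h, each with 3 libraries. It asked how skin and oral keratinocytes differ in their injury response. No treatment other than the scratch is named. The design has no unscratched culture at 24 h, and effects of the wound and of a further day in culture therefore cannot be told apart. The labels do not say whether the 3 libraries of a group came from separate cultures, so the spread behind the p-values may be technical.

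When a keratinocyte sheet is cut, cells at the edge lose contact with their neighbours, release interleukin 1 and other alarm signals, and switch on immediate-early genes. They then loosen desmosomes and hemidesmosomes, lay down laminin-332, rebuild their actin skeleton and crawl over the gap. Once the gap closes, contact between cells returns, migration genes are switched off, and cells higher in the sheet resume the programme of epidermal differentiation. The labels do not say how far the scratches had closed at 24 h.

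The libraries held 15781895 to 16323357 counted reads at 0 h and 14238090 to 15232613 at 24 h. Levels are given as counts per 1000000 reads (CPM) for libraries A, B and C in turn, and mitochondrially encoded transcripts took 7.64% to 8.08% of reads at 0 h and 7.196% to 7.55% at 24 h. The defining markers of keratinocytes were present. The summed level of 10 keratinocyte markers was 37897 to 40016 CPM at 0 h and 38906 to 43930 CPM at 24 h, with 5 of the 10 risen and 1 fallen. The 7 fibroblast markers summed to 24.9 to 29.1 CPM and then to 37.7 to 40.5 CPM, with COL1A1 the member that rose and PDGFRA and THY1 at 0 in all 6 libraries. The 5 endothelial markers summed to 2.72 to 3.27 CPM and then 6.80 to 8.15 CPM, with CDH5 and KDR at 0 and VWF the member that rose. The 6 immune markers summed to 1.56 to 2.63 CPM and then 3.75 to 4.70 CPM with TYROBP at 0 and ITGAM risen, and the 5 melanocyte markers to 2.68 to 3.59 CPM and then 3.61 to 4.70 CPM with TYR at 0 and 0 of the 5 risen. Their part in the results was not tested. In bulk RNA, more cells of a state and more RNA per cell cannot be told apart.

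At 24 h 2706 genes were called higher than at 0 h and 2765 lower, at a Benjamini-Hochberg adjusted p under 0.05 in edgeR's quasi-likelihood test over all genes. These are 15.5% and 15.9% of the genes tested, 31.4% together. Each list count below is to be read against these shares. At least 2-fold differences were called upward in 814 genes (4.68% of those tested) and downward in 434 (2.49%). At least 4-fold changes were seen in 230 genes upward and 89 downward. The median log2 difference over all genes tested was 0.0036. The 3 libraries of 24 h all lay above the 3 of 0 h in 23.1% of genes and all below in 22.5%. In the authors' deposited table of the same comparison 4426 genes are listed, with an adjusted p of at most 0.0099 in their test and an absolute log2 of at least 0.20. All 4426 had the same sign here, and 4244 were also called. That table rests on the same libraries and holds only genes past those limits, so the shared sign is no independent check. Among protein-coding genes, 2496 rose and 2564 fell. In the lists below, counts of 1 or 2 genes in a direction could change when 1 library was left out.

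**Figure D1:**
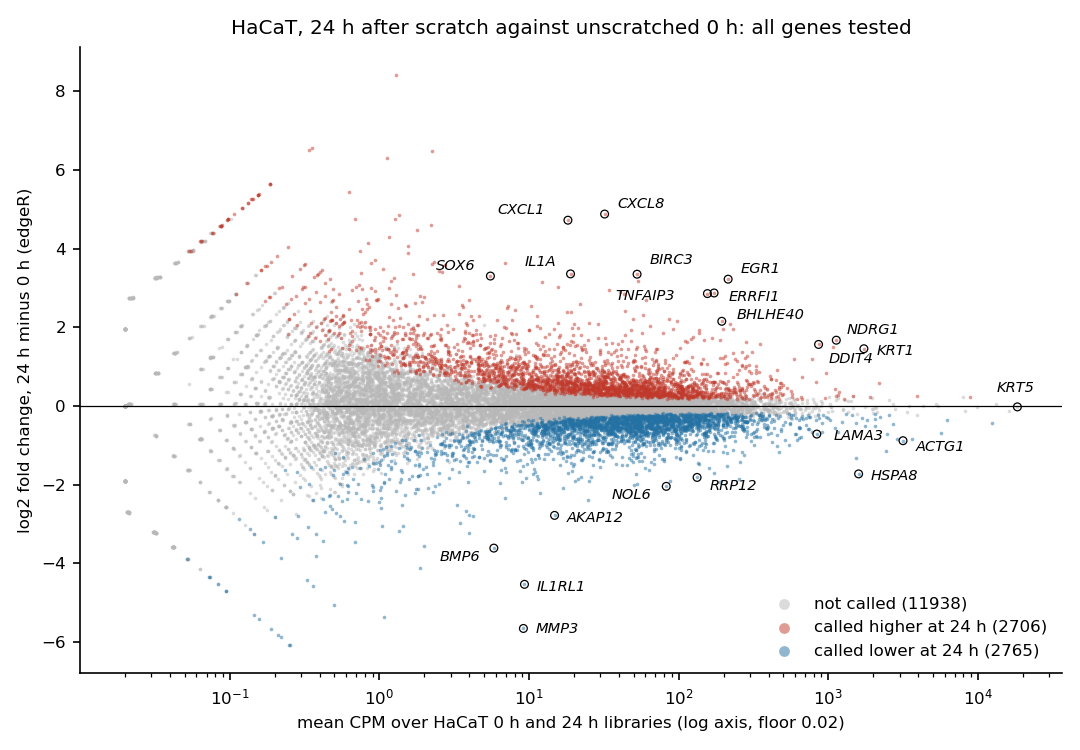
Mean CPM over the HaCaT 0 h and 24 h libraries (x, log axis) against the fitted log2 difference between 24 h and 0 h (y) for each of 17409 genes, coloured by call. Of the labelled genes, CXCL8 (log2 4.88) and CXCL1 (4.73) lie highest, MMP3 (-5.65) and IL1RL1 (-4.53) lowest, and KRT5 (-0.02) lies at the right on the zero line. The stripes at the left are genes with few reads, whose fitted values depend on the prior count.

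Chemokines, the secreted proteins that draw in neutrophils and other leukocytes, rose by the largest median of the lists with at least 10 tested members. Of 19 listed members 12 had enough reads to test. Some, such as CXCL3 and CCL20, had no or almost no reads at 0 h. They could pass the filter only through other groups and could hardly fall, which favours a count of risen genes. Of the 12 tested members 9 rose and 0 fell, where 15.5% of all genes rose, and all 9 rose at least 2-fold. Their median log2 difference was 4.66, or 2.75 with genes that had no count at 0 h set at their lower bound. CXCL8, the main neutrophil attractant of epithelia, stood at 1.67, 1.42 and 3.18 CPM at 0 h and at 61.1, 54.7 and 69.9 CPM at 24 h. CXCL1, which binds the same receptor CXCR2, went from 1.15, 1.36 and 1.43 CPM at 0 h to 37.7, 34.0 and 33.6 CPM at 24 h. In both genes every library of 24 h lay far above every library of 0 h, and the fitted rises were 29.5-fold (adjusted p = 1.8e-13) and 26.5-fold (adjusted p = 4.2e-11). CXCL1, CXCL2 and CXCL3 are near-identical copies, and reads may be shared between them. CCL20, which attracts cells bearing CCR6, was close to absent at 0 h (mean 0.0427 CPM) and stood at 3.81, 3.14 and 6.33 CPM at 24 h. CXCL3 had no count at 0 h and was at least 13.6-fold higher at 24 h. CXCL14, a chemokine that resting epidermis makes, was already high at 72.3, 80.0 and 80.3 CPM and rose to 259, 218 and 297 CPM (3.33-fold). CXCL16, a membrane-bound chemokine, did not pass the test, at 59.9, 51.8 and 55.2 CPM at 0 h and 49.6, 59.0 and 48.0 CPM at 24 h.

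The promoters of these chemokines are shown because they hold the letters read by NF-kB, the factor whose targets also rose. NF-kB binds sites such as GGAATTTCC or GGAAATCCC, and AP-1, the dimer of FOS and JUN proteins, binds TGANTCA. Both motifs were searched on both strands in the RefSeq promoter windows of GRCh38.p14, 250 bases before to 50 after each gene start, which were at hand for 11499 of 17393 tested symbols. Capitals below mark the matches, and the AP-1 match is the first of the pair in CXCL8. The windows lie at chr4:73740319-73740618, chr4:73869143-73869442 and chr11:102317234-102317533, all on the plus strand.
CXCL8: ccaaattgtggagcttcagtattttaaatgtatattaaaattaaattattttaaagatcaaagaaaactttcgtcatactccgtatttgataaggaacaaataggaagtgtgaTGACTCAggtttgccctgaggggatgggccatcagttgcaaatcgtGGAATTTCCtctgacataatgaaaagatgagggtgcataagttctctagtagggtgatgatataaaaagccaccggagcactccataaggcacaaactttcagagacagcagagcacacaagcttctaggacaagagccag
CXCL1: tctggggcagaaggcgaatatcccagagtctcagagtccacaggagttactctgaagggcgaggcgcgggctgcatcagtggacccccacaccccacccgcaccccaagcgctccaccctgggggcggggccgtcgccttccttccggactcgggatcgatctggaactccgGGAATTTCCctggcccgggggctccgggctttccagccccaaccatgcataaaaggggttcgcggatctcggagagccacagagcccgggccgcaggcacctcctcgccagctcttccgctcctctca
BIRC3: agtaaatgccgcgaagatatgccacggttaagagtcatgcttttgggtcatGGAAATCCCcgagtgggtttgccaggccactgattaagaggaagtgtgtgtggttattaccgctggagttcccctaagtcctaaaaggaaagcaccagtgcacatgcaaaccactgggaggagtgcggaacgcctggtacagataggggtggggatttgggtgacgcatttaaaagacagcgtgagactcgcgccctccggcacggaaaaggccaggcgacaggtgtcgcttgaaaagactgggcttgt
A kappaB match stood in the windows of 6 of the 9 chemokines with one at hand, and in 1.16% (133) of all windows. Among the genes of the NF-kB list it stood in 9 of 21. Of genes called higher at 24 h, 2.13% had it, and of genes called lower 0.711%. These motifs were picked with the called genes known, and a match is a description of the letters, not evidence of binding.

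NF-kB itself is held in the cytoplasm by inhibitors that are also its own targets, so its targets include its brakes. Of 23 NF-kB subunits and feedback targets 17 rose and 2 fell, with a median log2 difference of 0.71. TNFAIP3, the deubiquitinase A20 that shuts the pathway down, went from 37.9, 34.7 and 40.5 CPM at 0 h to 261, 265 and 295 CPM at 24 h, a 7.26-fold rise (log2 2.86, SE 0.10, adjusted p = 7.3e-16). The inhibitor NFKBIA went from 65.0, 53.1 and 54.3 CPM at 0 h to 192, 181 and 204 CPM at 24 h (3.35-fold). In both genes the groups were far apart. BIRC3, a ubiquitin ligase of the TNF receptor complex, stood at 8.91, 10.5 and 8.73 CPM at 0 h and 95.9, 93.5 and 98.7 CPM at 24 h, and TNFAIP2 rose 7.48-fold. ZC3H12A, an RNase that destroys cytokine messages and is not in this list, rose 3.47-fold to 68.6, 61.7 and 73.6 CPM. Of the subunits, RELB rose 1.68-fold, while RELA and NFKB1 were not called. At 6 h 0.201% of all genes were called against 0 h, 0.138% higher and 0.0632% lower, and TNFAIP3 was one of them (log2 0.71, adjusted p = 0.0016). It was higher again at 24 h than at 6 h, the comparison in which 35.7% of genes were called (log2 2.15, adjusted p = 3.1e-14).

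Of 26 listed interleukins and other cytokines 18 had enough reads to test, and genes low at 0 h, such as TNF, could hardly fall. Of the 18 tested 7 rose and 1 fell, where 15.5% of all genes rose and 15.9% fell. IL1A, the alarmin stored in keratinocytes, stood at 4.29, 2.79 and 2.99 CPM at 0 h and 33.0, 35.1 and 35.6 CPM at 24 h. IL1B, its secreted relative, went from 2.88, 1.92 and 1.68 CPM at 0 h to 11.6, 9.41 and 15.5 CPM at 24 h (5.61-fold, adjusted p = 1e-07). LIF, a cytokine of the interleukin 6 family, rose 4.93-fold, and TNF rose from a mean of 0.147 CPM to 3.43 CPM. IL18, a relative of IL1B, was not called, at 83.9, 94.3 and 85.3 CPM at 0 h and 85.3, 71.8 and 82.5 CPM at 24 h. IL1RN, the natural antagonist of IL1A and IL1B, was not called either, at 92.6, 81.8 and 99.3 CPM at 0 h and 79.4, 87.7 and 91.3 CPM at 24 h, and the groups overlapped for both genes. IL6 had 0.401 and 1.10 CPM on average and was not called (adjusted p = 0.19). IL33, the ligand of the receptor IL1RL1, was low and fell, from 0.961, 0.371 and 0.998 CPM at 0 h to 0.191, 0 and 0 CPM at 24 h. Of 25 cytokine receptors 4 rose and 6 fell, against the same 15.5% and 15.9% of all genes, and the fallen ones included IL1RL1 itself.

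Immediate-early genes, which usually peak within an hour of a stimulus and decay, were high at 24 h. Of 28 immediate-early and AP-1 genes 21 rose and 1 fell (median log2 1.00), and 14 rose at least 2-fold. EGR1, a zinc-finger factor induced by growth factors, stood at 41.3, 36.8 and 45.8 CPM at 0 h, at 49.9, 51.3 and 53.1 CPM at 6 h and at 353, 416 and 391.9 CPM at 24 h. FOS stood at 9.29, 9.91 and 12.5 CPM at 0 h, 17.97, 17.05 and 17.7 CPM at 6 h and 89.7, 100.2 and 98.1 CPM at 24 h. NR4A1, an orphan nuclear receptor, stood at 6.41, 3.65 and 8.48 CPM at 0 h, 12.8, 14.4 and 14.2 CPM at 6 h and 35.7, 39.9 and 36.9 CPM at 24 h. The 3 genes thus reached their highest level at the last time, with all libraries of 24 h above all libraries of 6 h, and the 24 h to 6 h difference was called in each (log2 2.91, 2.45 and 1.44). JUN, JUNB and FOSL2, the other AP-1 partners, rose 3.22-fold, 2.61-fold and 3.00-fold. FOSL1, the AP-1 subunit of migrating keratinocytes, was the exception: it stood at 184, 168 and 203 CPM, rose to 318, 266 and 289.7 CPM at 6 h, and was below its starting level at 24 h, at 104, 111 and 124 CPM (log2 -0.71, adjusted p = 2.2e-05). MYC, also an immediate-early gene, stood at 253, 231 and 248 CPM at 0 h and 221, 266 and 248 CPM at 24 h, and was not called.

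The promoter of EGR1 is shown for its CArG boxes, the sites of serum response factor, SRF. The box was searched on both strands, and the window lies at chr5:138465229-138465528 on the plus strand, with its 2 matches in capitals.
EGR1: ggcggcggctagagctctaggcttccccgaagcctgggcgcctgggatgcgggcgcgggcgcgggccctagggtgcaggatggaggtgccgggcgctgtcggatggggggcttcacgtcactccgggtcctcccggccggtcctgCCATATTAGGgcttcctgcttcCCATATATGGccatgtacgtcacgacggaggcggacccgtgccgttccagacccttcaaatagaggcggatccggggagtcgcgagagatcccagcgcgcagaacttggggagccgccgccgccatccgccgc
A CArG box stood in 3 of the 21 windows of immediate-early genes and in 1.52% of all windows. SRF itself was among the genes that rose.

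In keratinocytes, signals through the EGF receptor can drive migration and immediate-early genes, and inhibitors of the receptor form a feedback loop. The activity of the receptor was not measured here, and its part in the rises above was not tested. ERRFI1, which binds the receptor's kinase domain and blocks it, stood at 42.6, 42.5 and 39.0 CPM at 0 h, 39.9, 38.7 and 43.7 CPM at 6 h and 288, 298 and 324 CPM at 24 h. It was flat at 6 h, and its 24 h rise was 7.34-fold (log2 2.88, SE 0.08, adjusted p = 1.7e-18), the lowest p-value of all genes tested. Of the ligands, HBEGF rose 2.99-fold, from 8.33, 7.80 and 6.80 CPM at 0 h to 18.05, 24.7 and 26.0 CPM at 24 h, while AREG was not called (55.2, 55.4 and 45.0 CPM at 0 h and 47.7, 46.4 and 55.5 CPM at 24 h). NRG1, the ligand of ERBB3, fell 2.02-fold, from 287, 251 and 286 CPM at 0 h to 136, 133 and 139 CPM at 24 h. Among the 17 phosphatases and Sprouty genes that damp ERK signals, 7 rose and 5 fell, where 15.5% of all genes rose and 15.9% fell. DUSP1 and DUSP6, which take phosphate off MAP kinases, rose 4.23-fold and 2.05-fold, and SPRY2 and SPRY4 were not called. EDN2, the vasoactive peptide endothelin 2, stood at 7.43, 9.04 and 7.11 CPM at 0 h, 3.81, 5.99 and 4.26 CPM at 6 h and 61.1, 53.1 and 69.1 CPM at 24 h (7.77-fold).

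Several of the genes that fell furthest had been above their starting level at 6 h. The 6 h and 24 h differences share the 0 h libraries, so the test used is that of 24 h against 6 h. Some genes, such as BMP6, were named by the size of their fall from 6 h. That choice favours genes high at 6 h, so the test adds no support for them. Over all genes, 24 were called higher at 6 h than at 0 h. Of these, 11 were called lower and 9 higher at 24 h than at 0 h. MMP3, stromelysin 1, a protease that cuts matrix proteins, stood at 18.6, 12.3 and 23.1 CPM at 0 h, 27.9, 24.4 and 27.1 CPM at 6 h and 0.381, 0.341 and 0.326 CPM at 24 h. Its fall from 0 h was 50.4-fold (adjusted p = 1.3e-11) and its log2 difference from 6 h was -6.21 (adjusted p = 1.4e-12). IL1RL1, the receptor of interleukin 33, stood at 18.4, 13.3 and 21.96 CPM at 0 h, 36.8, 39.7 and 39.3 CPM at 6 h and 0.508, 0.682 and 1.11 CPM at 24 h. BMP6, a bone morphogenetic protein of the suprabasal epidermis, stood at 11.7, 8.61 and 12.04 CPM at 0 h, 20.8, 20.6 and 19.7 CPM at 6 h and 1.02, 0.75 and 0.848 CPM at 24 h. TFPI2, an inhibitor of serine proteases in the matrix, stood at 15.2, 16.8 and 12.8 CPM at 0 h, 27.1, 26.9 and 30.0 CPM at 6 h and 4.45, 3.96 and 4.11 CPM at 24 h. In all 4 genes the 3 libraries of 6 h lay above and the 3 of 24 h below those of 0 h. The 6 h rise was called for IL1RL1 (adjusted p = 0.013), BMP6 (0.026) and TFPI2 (0.0031), and not for MMP3 (0.51).

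AKAP12, a scaffold that anchors protein kinase A, fell 6.86-fold, from 26.3, 24.8 and 26.6 CPM at 0 h to 3.75, 3.89 and 3.65 CPM at 24 h. KCNMA1, a calcium-activated potassium channel, fell 5.24-fold, and AQP3, the glycerol and water channel of basal keratinocytes, fell 3.79-fold, from 264, 299 and 335 CPM at 0 h to 77.1, 73.1 and 86.8 CPM at 24 h. Both were above their starting mean at 6 h without a call. Other falls of this size were in NTSR1, the neurotensin receptor (5.06-fold), GPAT3, an enzyme of triglyceride synthesis (4.61-fold), OSBP2, an oxysterol-binding protein (4.03-fold), and the anthrax toxin receptor ANTXR2 (3.72-fold). A reverse course, down at 6 h and up at 24 h, was seen in TSC22D3, SMAD6 and TGM1, described further on.

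**Figure D2:**
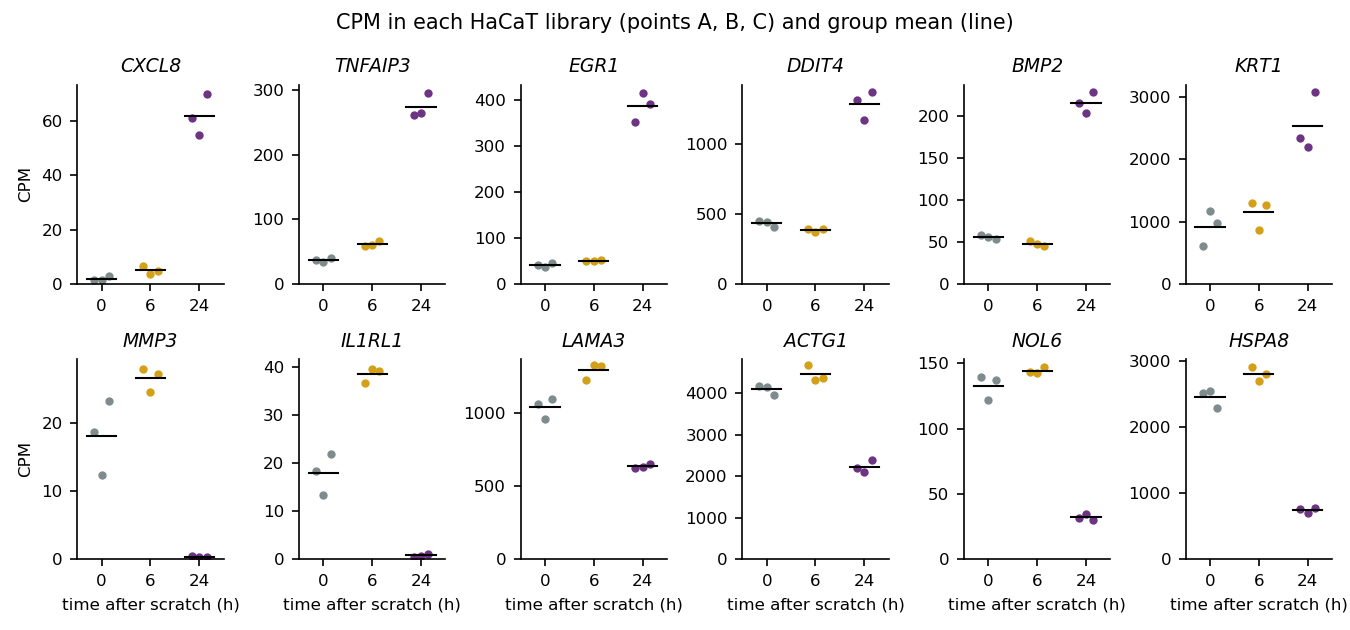
CPM (y, linear axis from 0) in each HaCaT library at 0, 6 and 24 h after the scratch (x), with points for libraries A, B and C from left to right and a line at the group mean, for 6 genes that rose and 6 that fell at 24 h. The 24 h libraries lie apart from both earlier times in all 12 genes. The 6 h libraries lie above those of 0 h in genes that later fell, such as MMP3, IL1RL1, LAMA3 and ACTG1. They also do so in genes that rose, such as CXCL8 and EGR1.

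Of 7 laminin-332 and hemidesmosome genes 4 fell and 1 rose at 24 h, and of 11 integrins 5 fell and 2 rose, where 15.9% of all genes fell and 15.5% rose. Laminin-332 is the matrix protein that keratinocytes lay down as they crawl and that anchors them through hemidesmosomes, and LAMA3 and LAMB3 encode chains of it. LAMA3 stood at 1062, 958 and 1100.3 CPM at 0 h, 1228, 1335 and 1327 CPM at 6 h and 624, 632 and 649.5 CPM at 24 h (1.64-fold lower than 0 h, adjusted p = 7.3e-08). The 6 h libraries lay above those of 0 h without a call, and the 24 h libraries below. LAMB3 fell 1.21-fold. Whether the falls of these chains differ was not tested. Among the hemidesmosome genes PLEC, the plectin linker, fell 1.62-fold, DST, the dystonin linker, rose 1.49-fold, and the collagen COL17A1 was not called, at 3369, 3482 and 3462 CPM at 0 h and 3512, 3354 and 3504 CPM at 24 h. The fallen integrins were ITGB1 (1.72-fold), ITGA3, ITGA2, ITGA6 and ITGB4, and the risen were ITGA5 and ITGAV.

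Actin and its partners fell together. Of 22 actin, filamin and contractile genes 14 fell and 1 rose, where 15.9% of all genes fell, with a median log2 difference of -0.33. ACTB, cytoplasmic beta-actin, stood at 7087, 6666 and 7072 CPM at 0 h and 3997, 4644 and 4334 CPM at 24 h, and ACTG1 at 4169, 4149 and 3950.4 CPM at 0 h and 2189, 2086 and 2389.6 CPM at 24 h. The groups did not overlap in either, and the falls were 1.61-fold (adjusted p = 1e-07) and 1.84-fold (6.4e-09). FSCN1, fascin, which bundles actin in filopodia, fell 2.195-fold, from 3353, 3306 and 3303 CPM at 0 h to 1474, 1549 and 1514 CPM at 24 h. ACTN1, the alpha-actinin of focal adhesions, and MYH9, non-muscle myosin, fell 1.81-fold and 1.33-fold. The 1 gene that rose, VIM, is an intermediate filament gene of mesenchymal cells and stayed low, at 0.128, 0.31 and 0.25 CPM at 0 h and 2.92, 1.98 and 1.57 CPM at 24 h. ACTB is often used to scale expression measurements.

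Proteases went both ways, with 6 risen and 8 fallen of 27 proteases and inhibitors, where 15.5% of all genes rose and 15.9% fell. MMP13, a collagenase, stood at 11.9, 9.29 and 10.4 CPM at 0 h, 8.26, 7.70 and 8.16 CPM at 6 h and 80.9, 73.6 and 72.5 CPM at 24 h (7.21-fold higher, adjusted p = 3.3e-13). PLAU, the urokinase that activates plasminogen, rose 2.47-fold, from 55.2, 54.7 and 55.2 CPM at 0 h to 135, 130.1 and 143 CPM at 24 h, and its inhibitor SERPINB2 rose 2.75-fold. MMP1, the interstitial collagenase of migrating keratinocytes, fell 2.54-fold, from 122, 121 and 88.4 CPM at 0 h to 46.1, 33.5 and 50.3 CPM at 24 h, and MMP10, which activates MMP1, fell 3.12-fold. MMP1, MMP3 and MMP10 lie beside MMP13 on chromosome 11 (hg38, MMP13 at chr11:102942995-102955734 and MMP3 at chr11:102835801-102843803), and these 3 fell while MMP13 rose. Of 19 wound matrix genes 3 rose and 5 fell, with a median log2 difference of 0.0006, and the share that rose was close to that of all genes. TNC, tenascin C, fell 1.5-fold. FN1, fibronectin, was not called, at 242, 231 and 231 CPM at 0 h and 245, 257 and 232 CPM at 24 h.

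Of the genes of differentiation, 3 of 10 suprabasal keratins, 10 of 35 cornified envelope and barrier genes and 18 of 26 transcription factors rose, where 15.5% of all genes rose. Keratins mark the layers of the epidermis, KRT5 and KRT14 the basal layer, KRT1 and KRT10 the layers above it, and KRT6A, KRT16 and KRT17 the wounded or hyperproliferative state. KRT1 stood at 618, 1164 and 986 CPM at 0 h and 2336, 2198 and 3070.2 CPM at 24 h (2.75-fold, log2 1.46, SE 0.21, adjusted p = 6.2e-06), and KRT10 at 268, 645 and 503 CPM at 0 h and 982, 858 and 1428 CPM at 24 h (2.31-fold). KRT3 was the other riser among the suprabasal keratins, and 7 of the 10 were not called. Within each group these genes spread widely: library A at 0 h was the lowest and library C at 24 h the highest for KRT1, KRT10, KRT16 and DSG1 alike. KRT5 stood at 18333, 18705 and 18362 CPM at 0 h and 18309, 17531 and 18784 CPM at 24 h and KRT14 at 12794, 13546 and 12440.0 CPM at 0 h and 13728, 12160.2 and 14326 CPM at 24 h, with overlapping groups and no call. The wound keratins parted ways. KRT17 fell 1.79-fold, from 4682, 4795 and 4504 CPM at 0 h to 2589.7, 2425 and 2781 CPM at 24 h, and KRT6A fell 1.28-fold, while KRT16 rose 2.29-fold, from 277, 439.6 and 364 CPM at 0 h to 789.9, 697 and 989.7 CPM at 24 h. Of 16 basal keratinocyte genes 8 fell and 2 rose, and the fallen include the laminin chains LAMA3 and LAMB3 and the integrins ITGA6 and ITGB4 already counted.

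Of 26 transcription factors that drive keratinocyte differentiation, 18 rose and 1 fell (median log2 0.64). OVOL1, a zinc-finger factor that stops basal cells dividing, went from 30.6, 27.2 and 24.8 CPM at 0 h to 73.0, 82.5 and 71.9 CPM at 24 h (2.75-fold, adjusted p = 1.3e-08). GRHL3 and KLF5 rose 3.35-fold and 2.04-fold, and TP63, the factor that maintains the basal state, rose too (1.48-fold). Of 13 desmosome genes 9 rose and 1 fell (median log2 0.58). Desmogleins and desmocollins are the cadherins that hold keratinocytes together, and DSG1, the suprabasal form, stood at 27.4, 47.7 and 38.1 CPM at 0 h and 129.6, 135 and 176 CPM at 24 h (3.89-fold). DSC1 rose 5.83-fold, DSC2 2.09-fold and the plaque protein PKP1 1.5-fold. Of 20 tight and gap junction genes 7 rose and 4 fell. CLDN1, the claudin without which skin leaks water, went from 137, 135 and 139 CPM at 0 h to 399, 454 and 416 CPM at 24 h (3.09-fold), whereas the connexin GJB2 fell 1.62-fold.

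Of the 35 cornified envelope and barrier genes 10 rose, 3 fell and 22 were not called, with a median log2 difference of 0.30. TGM1, the transglutaminase that crosslinks the envelope, stood at 79.6, 76.8 and 67.3 CPM at 0 h, 54.2, 50.8 and 48.3 CPM at 6 h and 158, 157 and 166 CPM at 24 h. It was called lower at 6 h (adjusted p = 0.0078) and higher at 24 h (2.15-fold, adjusted p = 1.1e-09). The lipoxygenase ALOX12B, which makes barrier lipids, and the protease inhibitor SPINK5 rose 3.08-fold and 1.66-fold. IVL, involucrin, was not called, at 13.8, 14.4 and 16.2 CPM at 0 h and 11.1, 8.05 and 13.0 CPM at 24 h, and SPRR2D, a small proline-rich envelope protein, fell 3.08-fold. Of 12 antimicrobial and secreted defence genes 5 rose and 1 fell, with 3 risen and 0 fallen without library A of 0 h.

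Hypoxia-responsive genes were called higher in nearly every case. HIF1A and EPAS1 encode the oxygen-sensitive subunits of the hypoxia-inducible factors, which are regulated mainly as proteins. Of 26 hypoxia-responsive genes 23 rose and 0 fell (median log2 0.83), against 15.5% of all genes. The other 3 were HIF1A, EPAS1 and KDM4B, and HIF1A stood at 109.6, 116 and 107 CPM at 0 h and 98.3, 102 and 104 CPM at 24 h. DDIT4, an inhibitor of the growth kinase mTORC1, went from 451, 443 and 409 CPM at 0 h to 1313, 1174 and 1374 CPM at 24 h (2.96-fold, adjusted p = 1.2e-12), and NDRG1, a stress and differentiation protein, from 539, 536 and 542 CPM at 0 h to 1718, 1539 and 1910.2 CPM at 24 h (3.19-fold). BHLHE40, a transcriptional repressor, stood at 68.9, 69.9 and 74.7 CPM at 0 h, 62.9, 64.0 and 68.3 CPM at 6 h and 299, 298 and 355 CPM at 24 h. The peptide hormone ADM and the lipase inhibitor ANGPTL4 rose 3.86-fold and 4.67-fold, and VEGFA, the main growth factor of blood vessels, 1.53-fold. None of these genes was called at 6 h. EGLN3, a hydroxylase that marks HIF1A for destruction, rose 4.34-fold. CA9, a carbonic anhydrase, rose from a mean of 1.83 CPM to 6.43 CPM. Medium depth, oxygen and cell density are not in the labels, and their part in this result was not tested.

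The hypoxia-inducible factors bind ACGTG, here marked in capitals in the window of DDIT4 at chr10:72273674-72273973 on the plus strand.
DDIT4: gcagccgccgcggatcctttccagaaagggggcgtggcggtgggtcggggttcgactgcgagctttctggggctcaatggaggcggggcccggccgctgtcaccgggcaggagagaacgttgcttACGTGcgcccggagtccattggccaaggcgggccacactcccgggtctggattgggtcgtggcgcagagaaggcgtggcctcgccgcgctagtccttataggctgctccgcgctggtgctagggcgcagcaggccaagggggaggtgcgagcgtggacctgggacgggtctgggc
The 5 letters are common: they stood in 31.7% of all windows and in 13 of the 22 windows of hypoxia-responsive genes. The share was 31.55% in windows of genes called higher and 34.95% in those of genes called lower, and 11 of the 20 windows of ribosome biogenesis genes, most of which fell, also held them. They are also part of the E-box CACGTG, so the 2 motifs overlap.

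Glycolysis breaks glucose down to pyruvate and lactate without oxygen. Of 23 glycolysis and lactate genes 12 rose and 3 fell (median log2 0.23). ENO2, the enolase isoform of neurons, stood at 2.31, 3.28 and 1.81 CPM at 0 h and 22.3, 20.5 and 23.6 CPM at 24 h (8.93-fold), while the common isoform ENO1 was not called, at 2017, 2051 and 1982 CPM at 0 h and 1954, 1795 and 2015 CPM at 24 h. The glucose carriers SLC2A3 and SLC2A1 rose 4.23-fold and 1.61-fold. HK2, the hexokinase that traps glucose, rose 2.11-fold, and PFKFB3, which makes the activator of phosphofructokinase, 1.96-fold. GAPDH and LDHA rose by little, 1.20-fold and 1.13-fold. Both lactate carriers of the list, SLC16A1 and SLC16A3, were called lower.

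Genes of cholesterol synthesis rose by modest folds. The transcription factor SREBF2 switches on the enzymes of this pathway when the membrane of the endoplasmic reticulum is short of cholesterol. Of 25 genes 21 rose and 0 fell (median log2 0.52). HMGCS1, which makes the HMG-CoA that the pathway starts from, stood at 131, 137 and 132 CPM at 0 h and 296, 273 and 284 CPM at 24 h (2.13-fold, adjusted p = 5.4e-11), with the groups far apart. INSIG1, the brake on SREBF2, rose 1.88-fold, from 309, 312 and 330.3 CPM at 0 h to 584, 621 and 583 CPM at 24 h. Of 25 fatty acid and triglyceride genes 14 rose and 3 fell. ACSL1, which activates fatty acids, rose 2.15-fold. SCD, the desaturase, stood at 8270.1, 7874 and 8194 CPM at 0 h and 9374, 9942 and 9155 CPM at 24 h, and FASN, fatty acid synthase, at 3659, 3432 and 3648 CPM at 0 h and 4197, 4633 and 4078 CPM at 24 h. Their rises were small (1.17-fold and 1.20-fold) and lost the call when library B of either group was left out.

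Of 19 G1 regulators and cell-cycle inhibitors 10 rose and 6 fell. CDKN1A, the p21 inhibitor of cyclin-dependent kinases, stood at 62.5, 59.9 and 56.3 CPM at 0 h and 214, 205 and 224 CPM at 24 h (3.60-fold, adjusted p = 1.6e-13). CDKN2B, the p15 inhibitor, went from 27.5, 31.3 and 24.5 CPM at 0 h to 73.8, 81.8 and 78.9 CPM at 24 h (2.81-fold), and CDKN1C, p57, from a mean of 0.417 CPM to 4.57 CPM. CCND1, cyclin D1, which carries cells through G1, fell 2.03-fold, from 622, 587 and 628 CPM at 0 h to 289.6, 323 and 292 CPM at 24 h, and TERT, the telomerase subunit, fell 2.70-fold. The FOXO factors are in general active when insulin and AKT signals are low, and neither these signals nor FOXO activity was measured here. Of 20 glucose-sensing and FOXO target genes 14 rose and 0 fell (median log2 0.74). Among them ARRDC3, an arrestin that limits glucose uptake, rose 4.51-fold, CCNG2, a cyclin of resting cells, 3.15-fold, and PIK3IP1, an inhibitor of PI3 kinase, 3.18-fold. Of 13 glucocorticoid receptor targets 9 rose and 1 fell (median log2 1.66). TSC22D3, the glucocorticoid-induced leucine zipper, stood at 84.8, 88.8 and 80.9 CPM at 0 h, 53.9, 57.0 and 62.2 CPM at 6 h and 362, 369 and 346 CPM at 24 h, called lower at 6 h (adjusted p = 0.015) and higher at 24 h (1.2e-13). PER1, a clock gene and a target of the same receptor, rose 3.21-fold. Of 19 clock genes 10 rose and 3 fell, and the fallen were ARNTL, ARNTL2 and CLOCK, the activators that drive PER1. Without library B of 0 h 1 clock gene was called lower. Serum, hormone and the hour of collection are not in the labels, and their part in these changes was not tested.

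Ribosome biogenesis genes mostly fell. These genes make ribosomal RNA in the nucleolus, process it and assemble it with proteins, and MYC is a known activator of many of them. Of 26 ribosome biogenesis genes 23 fell and 0 rose, where 15.9% of all genes fell, and the median log2 difference was -1.03. The other 3 were MYC, FBL and NOP2. RRP12, which exports ribosomal subunits, stood at 211, 207 and 202 CPM at 0 h and 57.9, 57.6 and 60.9 CPM at 24 h (3.52-fold lower, log2 -1.81, SE 0.07, adjusted p = 3e-15). RRS1, an assembly factor of the large subunit, went from 84.0, 80.5 and 88.8 CPM at 0 h to 24.3, 19.98 and 20.2 CPM at 24 h, and NOL6, nucleolar protein 6, from 139, 122 and 137 CPM at 0 h to 31.7, 34.8 and 30.3 CPM at 24 h (4.12-fold). NOL6 is not a member of the list. DKC1, the pseudouridine synthase that also holds telomerase RNA, fell 2.38-fold, MYBBP1A 2.86-fold and the polymerase I subunit POLR1B 2.58-fold. NPM1 and NCL, the abundant nucleolar proteins, fell 1.32-fold and 1.77-fold. The ribosome's own proteins were another case: of 24 cytosolic ribosomal protein genes 0 rose and 0 fell in edgeR's test (median log2 -0.11), and 3 of them had an unadjusted p under 0.05, DESeq2 and limma called 0 as well, and 7 were called lower in a fit of the 9 HaCaT libraries alone. RPS2 stood at 2073, 2150.0 and 1917 CPM at 0 h and 2138, 1823 and 2127 CPM at 24 h, with overlapping groups.

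MYC and its partner MAX bind the E-box CACGTG, marked in the window of NOL6 at chr9:33473875-33474174 on the minus strand and printed along the gene.
NOL6: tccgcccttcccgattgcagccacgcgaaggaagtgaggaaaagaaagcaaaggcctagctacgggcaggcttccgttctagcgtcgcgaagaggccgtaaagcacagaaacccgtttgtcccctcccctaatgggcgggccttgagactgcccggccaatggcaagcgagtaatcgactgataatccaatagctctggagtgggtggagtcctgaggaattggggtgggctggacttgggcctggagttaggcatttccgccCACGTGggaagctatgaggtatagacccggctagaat
An E-box stood in 7 of the 20 windows of ribosome biogenesis genes and in 12.3% of all windows. It stood in 16.4% of windows of genes called lower and 12.6% of those called higher. MYC itself was not called, as given above, and protein was not measured.

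Chaperones, which help proteins fold, also fell. Of 15 heat shock genes 10 fell and 0 rose (median log2 -0.35). HSPA8, the constitutive HSP70 that folds new proteins, fell from 2514, 2536 and 2289 CPM at 0 h to 761, 692 and 769 CPM at 24 h (3.30-fold, adjusted p = 5.2e-13). HSPH1, its nucleotide exchange factor, fell 2.001-fold, and HSP90AA1 was not called, at 1089, 1076 and 1002 CPM at 0 h and 1046, 1012 and 1038 CPM at 24 h. The integrated stress response, which slows translation while favouring ATF4, was represented by 24 genes, of which 16 rose and 3 fell. DDIT3, the factor CHOP, rose 3.65-fold, and PPP1R15A, which ends the response, 3.84-fold, from 17.3, 19.9 and 22.1 CPM at 0 h to 71.9, 76.2 and 80.0 CPM at 24 h. The count of risen genes here was 10 without library A or without library C of 24 h. SLC7A5, a carrier of large amino acids, fell 1.37-fold, from 3216, 3010.3 and 3185 CPM at 0 h to 2176, 2516 and 2158 CPM at 24 h.

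**Figure D3:**
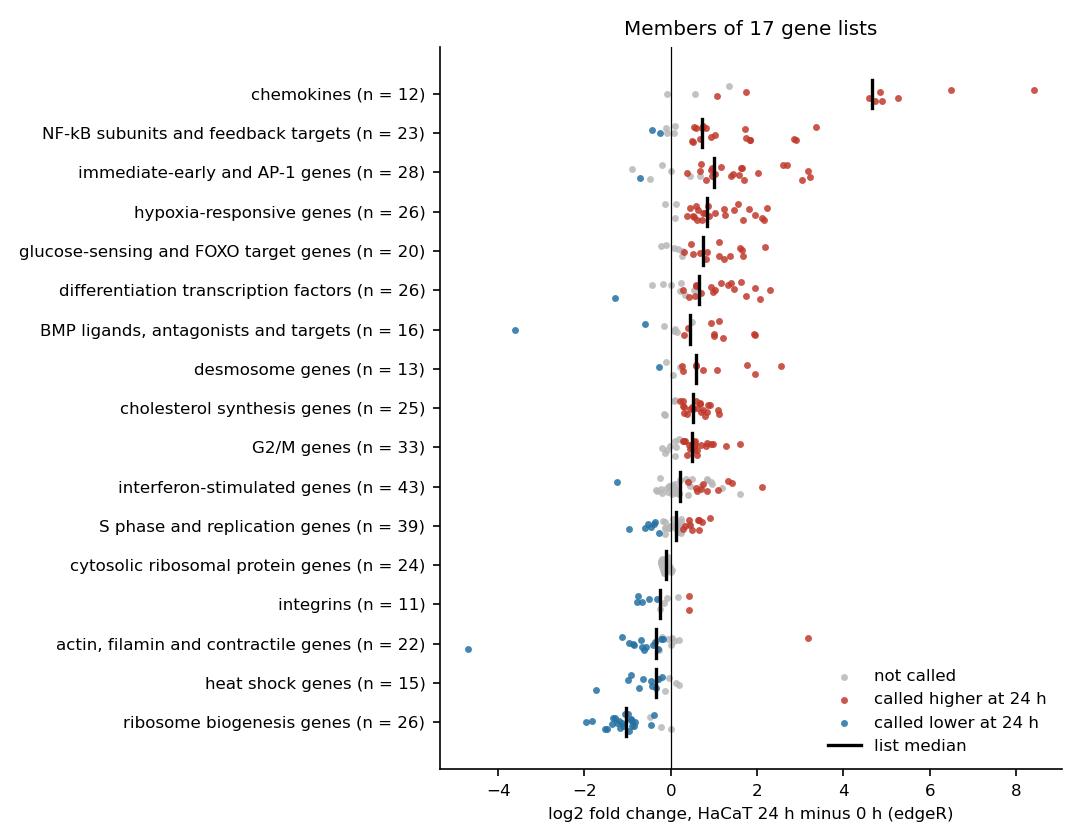
Fitted log2 difference between 24 h and 0 h in HaCaT (x) for each tested member of 17 gene lists (rows), coloured by call, with a bar at the list median and points shifted up or down only to keep them apart. The ribosome biogenesis median is -1.03 and the cytosolic ribosomal protein median -0.11. Chemokines spread most, up to the fitted value of CXCL3, which had no count at 0 h.

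Genes of mitosis stood higher at 24 h. Of 33 G2/M genes 25 rose and 0 fell (median log2 0.49), and in S phase 10 of 39 rose and 7 fell (median log2 0.12). Over all genes 15.5% rose and 15.9% fell. TOP2A, the topoisomerase that untangles chromosomes, stood at 228, 231 and 218 CPM at 0 h and 428, 435 and 419 CPM at 24 h (1.90-fold, adjusted p = 2.7e-07). ANLN, anillin of the cleavage furrow, rose 1.80-fold and CCNB2, cyclin B2, 1.77-fold, from 45.4, 50.1 and 42.2 CPM at 0 h to 82.2, 78.0 and 83.7 CPM at 24 h. CCNB1, PLK1 and AURKA, also mitotic regulators, were not called, and CCNB1 stood at 134, 136 and 120.2 CPM at 0 h and 119, 99.6 and 120.0 CPM at 24 h. In S phase MCM2, a helicase subunit, rose 1.35-fold, PCNA was not called (161, 172 and 137 CPM at 0 h and 179.5, 142 and 172 CPM at 24 h), and E2F1, a driver of the phase, fell 1.298-fold.

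The window of CCNB2 at chr15:59104896-59105195 on the plus strand is shown for its CCAAT boxes, read by NF-Y, and for the letters TTTGAA of the cell cycle homology region, which close it off in resting cells. Its 4 CCAAT boxes come first and TTTGAA last, in capitals.
CCNB2: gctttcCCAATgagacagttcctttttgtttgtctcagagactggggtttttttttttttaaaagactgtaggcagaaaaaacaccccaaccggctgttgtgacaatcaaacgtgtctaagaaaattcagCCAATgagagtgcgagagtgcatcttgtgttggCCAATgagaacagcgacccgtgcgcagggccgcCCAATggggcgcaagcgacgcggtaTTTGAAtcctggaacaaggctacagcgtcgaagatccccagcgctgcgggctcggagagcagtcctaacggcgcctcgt
TTTGAA stood in 17 of the 27 windows of G2/M genes and in 13.7% of all windows, and CCAAT in 23 of the 27 and in 42.5%. CCAAT also stood in 16 of the 18 windows of cholesterol synthesis genes.

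Genes of the BMP pathway rose in 9 of 16 cases and fell in 2, where 15.5% and 15.9% of all genes did. BMP2, a ligand, stood at 58.2, 56.4 and 53.5 CPM at 0 h and 215, 204 and 228 CPM at 24 h (3.84-fold, adjusted p = 5.6e-11), while BMP6 fell as described. The inhibitors of differentiation ID1, ID2, ID3 and ID4, which are direct BMP targets, all rose, and ID3 stood at 169, 193 and 164 CPM at 0 h and 365, 345 and 348 CPM at 24 h. SMAD6, the BMP-induced brake, stood at 95.3, 86.2 and 82.3 CPM at 0 h, 56.5, 57.4 and 47.7 CPM at 6 h and 193, 223 and 192 CPM at 24 h. INHBA, the activin A subunit made in wounds, rose 3.61-fold, from 21.5, 19.2 and 33.3 CPM at 0 h to 89.0, 91.0 and 87.1 CPM at 24 h. PMEPA1, a TGF-beta target that damps the signal, fell 2.69-fold, from 378, 335 and 419 CPM at 0 h to 138, 145 and 138 CPM at 24 h. Of 20 TGF-beta and activin genes 5 rose and 3 fell, against the same 15.5% and 15.9%, with 3 risen when library B of 0 h was left out. Of 15 Notch genes 3 rose and 3 fell (median log2 0.07), near the 15.5% and 15.9% of all genes, so the list as a whole did not stand out. NOTCH3 rose 3.63-fold, from 32.4, 35.8 and 32.8 CPM at 0 h to 119.9, 127 and 121 CPM at 24 h, with the target HES1 2.74-fold higher, while NOTCH2, another receptor, fell 1.41-fold and the targets NRARP and HES2 fell 2.23-fold and 1.34-fold. NOTCH1 was not called, at 308, 288 and 312 CPM at 0 h and 274, 289 and 257 CPM at 24 h. Of 16 targets of YAP, the factor that senses tension, 7 rose and 4 fell, against the same 15.5% and 15.9%. CYR61 rose 3.29-fold and CTGF 2.61-fold.

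Of 14 prostaglandin genes 6 rose and 6 fell, where 15.5% of all genes rose and 15.9% fell. PTGS2, the inducible cyclooxygenase, stood at 14.3, 13.7 and 11.98 CPM at 0 h and 42.1, 45.7 and 44.9 CPM at 24 h (3.32-fold), and PTGS1, the constitutive form, at 137, 125 and 153 CPM at 0 h and 36.9, 36.8 and 36.3 CPM at 24 h (3.77-fold lower). PTGES, which makes prostaglandin E2 from their product, fell 1.92-fold, and PTGER4, a receptor of prostaglandin E2, rose 2.98-fold. The mitochondrial transcript MT-ND1 fell 1.78-fold, from 3693, 3594 and 3739 CPM at 0 h to 2011, 2143 and 2040.4 CPM at 24 h. Of the 13 mitochondrially encoded genes 3 fell and 0 rose, and 1 fell without library A of 24 h. In the fits of HaCaT libraries alone 7 fell and 2 rose, and 5 fell and 2 rose without the TIGK libraries C of 0 h and 6 h.

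Stress and growth genes outside these pathways went both ways, where 15.5% of all genes rose and 15.9% fell. GADD45A, a p53 target that slows the cycle, stood at 23.1, 25.4 and 21.4 CPM at 0 h and 71.0, 70.1 and 79.3 CPM at 24 h (3.16-fold), and 12 of 25 p53 genes rose and 5 fell. GCLC, the first enzyme of glutathione synthesis, rose from 85.5, 92.1 and 85.2 CPM at 0 h to 159, 167 and 161 CPM at 24 h, and of 24 NRF2 targets 12 rose and 1 fell. GABARAPL1, which helps to form autophagosomes, went from 10.6, 9.29 and 11.6 CPM at 0 h to 31.5, 29.2 and 30.2 CPM at 24 h, and of 24 autophagy and lysosome genes 9 rose and 1 fell. The groups did not overlap in these 3 genes. IGFBP3, which binds insulin-like growth factors, was among the 10 largest rises in mean CPM, from 542, 569.8 and 568 CPM at 0 h to 1541, 1347 and 1845 CPM at 24 h. EFNA1, an ephrin, and its receptor EPHA2 rose 2.18-fold and 1.69-fold. WNT7A, a secreted WNT ligand, fell 2.12-fold, from 33.4, 31.6 and 34.2 CPM at 0 h to 13.2, 15.8 and 17.8 CPM at 24 h, with higher values at 6 h (45.6, 44.5 and 46.5 CPM, not called). CD44, the receptor of hyaluronan, fell 1.58-fold, from 1384, 1298 and 1555 CPM at 0 h to 858, 914 and 910.5 CPM at 24 h. SEMA3B, a guidance protein, fell 3.77-fold, and EGR3, a relative of EGR1, rose 8.17-fold.

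Non-coding transcripts with the largest changes were low in reads. TPRG1-AS1, an antisense RNA, rose from 0.384, 0.433 and 0.1248 CPM at 0 h to 1.33, 3.00 and 2.48 CPM at 24 h, and LINC00589 fell from 2.82, 4.58 and 3.81 CPM at 0 h to 0.635, 1.02 and 0.783 CPM at 24 h. OGFR-AS1 fell from a mean of 2.40 CPM to 0.422 CPM. The counting is not stated to use strand, so reads of an antisense RNA and of its partner cannot be told apart. MIR3648-1 stood at 3.78, 3.84 and 3.87 CPM at 0 h and 16.8, 20.7 and 18.9 CPM at 24 h and FP236383.2 rose mostly in library A of 24 h (5.15, 0.887 and 0.652 CPM). Both lie in repeated ribosomal DNA, where reads may come from any copy.

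Against TIGK at 24 h, HaCaT shared a part of its response. Of the genes called higher in HaCaT 43.9% were called higher in TIGK too, which is 44.8% of those called higher in TIGK, and for lower genes the shares were 54.1% and 50.5%. Over all genes tested, 15.3% were called higher and 17% lower in TIGK, 32.3% together, beside 15.5% and 15.9% in HaCaT. The difference between the 2 responses was tested directly, and 2354 genes (13.5%) passed, 7.07% with a positive and 6.45% with a negative difference. It included 221 genes that rose in HaCaT and fell in TIGK and 101 that did the reverse. The hypoxia list differed in 22 of its 26 members: its median log2 difference was 0.83 in HaCaT and -0.17 in TIGK. ANGPTL4 rose 4.67-fold in HaCaT and had a log2 difference of -0.66 in TIGK (difference 2.88, adjusted p = 6.7e-09), and ENO2 had 3.16 and -0.44 (adjusted p = 1.6e-09). Cholesterol synthesis differed in 17 of 25 members, with medians of 0.52 and 0.03, and HMGCS1 had 1.09 and -0.43. Of 12 chemokines 6 had a called line difference, and of 23 NF-kB genes 10. CXCL8 had log2 differences of 4.88 in HaCaT and 0.77 in TIGK (adjusted p of the difference = 6.7e-09), CXCL1 4.73 and 0.26, and TNFAIP3 2.86 and 0.44. CXCL14 went the other way, with 1.73 and 2.49 (adjusted p = 0.024), a call lost with DESeq2, with limma and when library B or C of 0 h or B of 24 h was left out. The immediate-early gene EGR1 had 3.23 and 0.29, and the EGF receptor inhibitor ERRFI1 2.88 and 0.68.

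Interferon-stimulated genes, which cells switch on when they sense viral or misplaced nucleic acid, differed in the other direction. Of 43 members 10 rose and 1 fell in HaCaT (median log2 0.20), and 40 rose in TIGK (median 2.0), and the line difference was called in 30. ISG15, a ubiquitin-like protein, stood at 19.0, 18.4 and 16.7 CPM at 0 h and 20.4, 20.1 and 17.6 CPM at 24 h in HaCaT. TYMP, thymidine phosphorylase, and DDX60L, a helicase gene induced by interferon, are not in this list and fell in HaCaT (log2 -0.58 and -1.25) and rose in TIGK (2.01 and 1.68). The fall of TYMP lost its call when library B of 0 h or of 24 h was left out. LAMA3 also parted, with -0.71 in HaCaT and 0.71 in TIGK (adjusted p of the difference = 2e-09). Ribosome biogenesis fell in both lines, in 23 of 26 members each (medians -1.03 and -0.70), and the fall of NOL6 was larger in HaCaT (-2.04 against -0.99, adjusted p = 6.7e-07). SMAD6 and ID3 rose in both and by less in HaCaT, SMAD6 with 1.20 against 2.17 and ID3 with 1.01 against 1.90. The line difference of SMAD6 was not called with limma on log2(FPKM + 1), at -0.29 (adjusted p = 0.241). BMP2 and INHBA were called in HaCaT and not in TIGK, with 1.94 against 0.30 and 1.85 against 0.01, and the differences were called (adjusted p = 5.2e-06 and 3.7e-07). Library C of TIGK at 0 h held 26246 detected genes and library C at 6 h 25161, more than the 21457 to 22799 of the other TIGK libraries, and 2354 line differences were called without them.

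**Figure D4:**
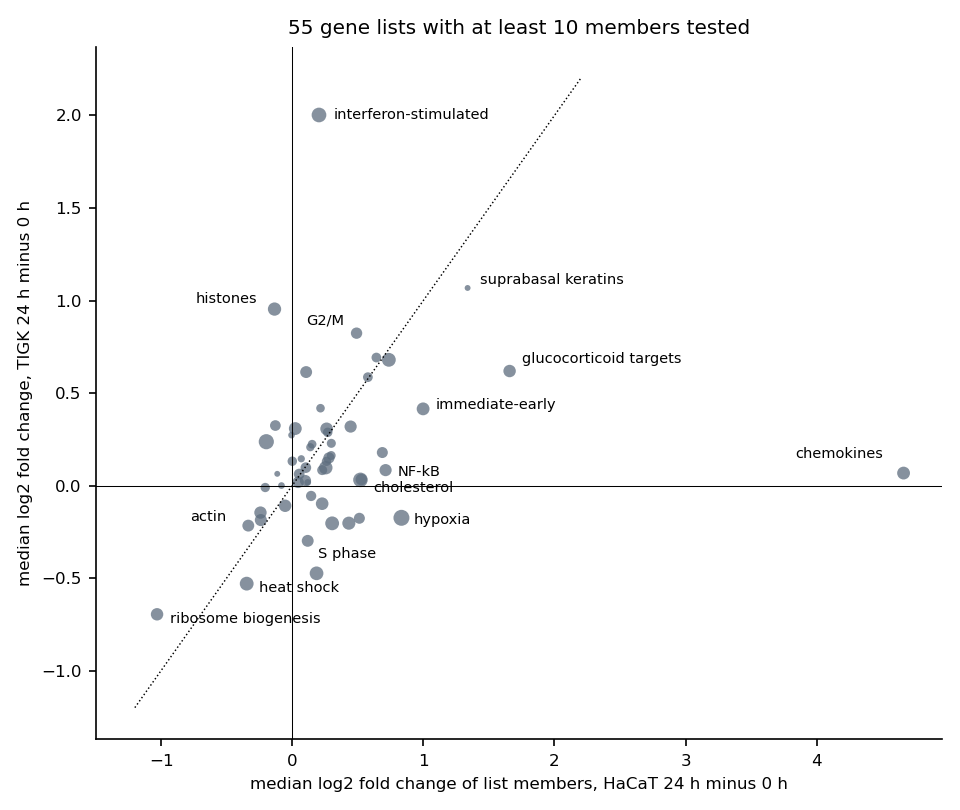
Median log2 difference between 24 h and 0 h of the members of 55 gene lists with at least 10 tested members, in HaCaT (x) and TIGK (y). Points grow with the share of members whose line difference was called, and the dotted line marks equal medians. Chemokine (4.66 and 0.07) and hypoxia (0.83 and -0.17) lists lie below the line, interferon-stimulated genes (0.20 and 2.0) above it, and ribosome biogenesis lies at the lower left.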

How the data were processed

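Total RNA of cultured cells was sequenced as 18 libraries, and no reads were handled here. The tools in the submitters' processing notes are featureCounts 1.5.0-p3, HISAT2 2.0.5 and StringTie 1.3.3b, with hg38. The annotation release and strand setting are not given in the sources used here. The authors deposited raw counts per gene, FPKM, which are reads scaled by gene length and library size, and a table of their own comparison with log2 fold changes and adjusted p-values. Columns were matched to groups by line and hour. Their letters A, B and C are not in the labels and did not pair the libraries: the deviations of same-letter 0 h and 24 h libraries correlated at 0.054, -0.238 and -0.115 over 9380 genes.

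Counts were filtered with filterByExpr, scaled by TMM and fitted with edgeR 4.0.16 (R 4.3.3) to 6 group means over 18 libraries (12 residual degrees of freedom, prior count 0.125). CPM are the counts per 1000000 reads after TMM. Calls are at an adjusted p under 0.05 by Benjamini-Hochberg. The line difference is the HaCaT change minus the TIGK change. On simulated data with 100 genes changed 1.5-fold and 100 changed 2-fold among the 17409, the test recovered 53% and 73%, with 5 false calls of 131. The changed genes were drawn from those above 1 CPM at 0 h, and were a far smaller share than the 31.4% called here. The rates therefore do not give the recovery or the false calls of this comparison. DESeq2 1.42.0 and limma 3.58.1 on log2(FPKM + 1) were among 17 alternatives. A gene at 0 reads in a group has its fold computed against 3 reads in each library.

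The genes and the 63 lists were chosen with earlier results of these data known. Named genes are the 20 largest fold changes and the 10 largest changes in mean CPM each way among called protein-coding genes whose groups do not overlap, at 10 CPM or more, 4 non-coding genes each way at 2 CPM or more, up to 4 members of each list by p, and the 6 largest changes each way in the 24 h to 6 h and line comparisons. Other members were named after their values were seen. A symbol on several rows was taken from its protein-coding row. Promoter letters are from RefSeq (GRCh38.p14). Some genes are not reported here.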

Additional observations from a re-analysis of the deposited data

Results flagged for a closer look

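The 24 h response differed between the lines in many of the genes described above, by edgeR's test of the HaCaT log2 change minus the TIGK log2 change, and 16 of them are given here. They were chosen after their values were seen.

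Inflammatory and immediate-early genes had positive differences, of 4.12 for CXCL8 (adjusted p = 6.7e-09), 4.46 for CXCL1 (adjusted p = 3.4e-07), 2.42 for TNFAIP3 (adjusted p = 4.4e-11), 2.94 for EGR1 (adjusted p = 3.7e-10) and 2.19 for ERRFI1 (adjusted p = 7e-13). Genes of metabolism and low oxygen also had positive differences, of 2.88 for ANGPTL4 (adjusted p = 6.7e-09), 3.60 for ENO2 (adjusted p = 1.6e-09) and 1.52 for HMGCS1 (adjusted p = 5.3e-10). The secreted ligands differed by 1.64 for BMP2 (adjusted p = 5.2e-06) and 1.84 for INHBA (adjusted p = 3.7e-07).

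Negative differences were found in genes of other kinds. They were -2.93 for DDX60L (adjusted p = 1.1e-09) and -2.59 for TYMP (adjusted p = 5.8e-08) among genes that interferon induces, and -1.42 for LAMA3 (adjusted p = 2e-09), a laminin chain. They were -1.05 for NOL6 (adjusted p = 6.7e-07), -0.96 for SMAD6 (adjusted p = 0.0021) and -0.90 for ID3 (adjusted p = 0.00016) among genes that moved the same way in both lines. The difference of SMAD6 was not called with limma on log2(FPKM + 1), at -0.29 (adjusted p = 0.241). The TIGK 0 h group holds a library with more reads and more detected genes than the rest, and its part in these differences was not tested beyond the fit without it.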

How the results depend on the processing

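Among 17 alternatives, 4575 to 4720 genes were called at 24 h when 1 HaCaT library of 0 h or 24 h was left out, against 5471 with all. The counts of genes at least 2-fold higher and lower were 234 and 132 with limma on log2(FPKM + 1), against 814 and 434, and the cause was not tested. The other scalings moved the share of higher genes among those called from 49.5% to at most 57.9%, and the median of all genes to at most 0.060 on the log2 scale. RPS2 was not called, at log2 values of 0.0086 (median-of-ratios scaling, and DESeq2), 0.0305 (upper quartile), 0.0434 (no scaling), 0.0069 (at least 1 CPM), 0.0058 (limma) and -0.0656 to 0.0584 when a library was left out, against -0.01. The line differences of CEMIP, HS3ST2 and SH2D2A changed sign with limma, at -0.1135, -0.2653 and 0.1626, and the cause was not tested. With a replicate block by letter, 2828 genes were higher and 2934 lower, and all 269 named calls kept their side of the threshold. The letters share only a name, so the block has no design behind it. The medians of 8 lists changed sign between settings: WNT, wound matrix, protease, wound keratin, histone, ephrin and HOX genes, and the fibroblast markers (0.41, with a range of -0.30 to 0.56). With 14238090 to 16323357 reads, a gene under 1 CPM rests on fewer than 17 reads in each library.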

Other observations

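Several large changes lay outside the gene lists. DLX4, a homeobox gene, rose from 2.69, 3.53 and 2.87 CPM at 0 h to 19.5, 15.3 and 17.9 CPM at 24 h (5.79-fold, adjusted p = 4.8e-09 in edgeR). SAMD11 rose 6.50-fold, to 112, 105 and 95.8 CPM. The metalloprotease ADAM19 fell 5.75-fold, from 3.84, 6.996 and 6.18 CPM at 0 h to 1.08, 0.614 and 1.24 CPM at 24 h, and its log2 difference between 24 h and 6 h was -3.37. DCBLD2, a membrane protein, fell 3.59-fold, from 408, 345 and 443 CPM at 0 h to 106, 118 and 109 CPM at 24 h. BEND3, a chromatin protein, fell 3.63-fold, HPDL 3.86-fold and TMEM150A 3.81-fold. In each of these genes the 3 libraries of 24 h lay on 1 side of the 3 of 0 h. That was a condition for genes named by their fold change from 0 h, and so adds no support.

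Of 20 other growth factors and receptors 7 rose and 6 fell, where 15.5% of all genes rose and 15.9% fell. PTHLH, parathyroid hormone-like hormone, fell 1.82-fold, from 70.5, 69.5 and 72.4 CPM at 0 h to 38.9, 36.8 and 40.7 CPM at 24 h. FGFBP1, which releases fibroblast growth factors from the matrix, fell 1.5-fold, from 882, 901 and 836 CPM at 0 h to 585, 532 and 627 CPM at 24 h. Of 11 LXR targets and cholesterol export genes 4 rose and 1 fell, and MYLIP, a ubiquitin ligase, rose 1.76-fold. Of the risen genes, CH25H and APOC1 had no read at 0 h and only 14 and 10 reads in all at 24 h. Their lower bounds were 1.63-fold and 1.14-fold, and both lost the call with limma on log2(FPKM + 1).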
